A study of Mus musculus with 6 samples.

Results

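The genes described here build ribosomes. A list of 40 genes of the nucleolus was taken by gene symbol: RNA polymerase I subunits, abundant nucleolar proteins, the proteins of small nucleolar ribonucleoproteins (snoRNPs), and assembly factors of the small (40S) and large (60S) ribosomal subunits. Each gene was represented by its probe set with the highest mean signal over the 6 arrays. Of the 40 genes, 39 had a probe set in the annotation used, out of 18193 genes in all. Npm3, a nucleoplasmin family member, is the other listed gene and has no value here.

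The arrays were Affymetrix Mouse Genome 430 2.0 arrays hybridised with RNA of Ba/F3 cells, a BALB/c mouse haematopoietic line that needs interleukin-3. The cells were grown with medium conditioned by WEHI-3 cells, a source of that cytokine. All cells, controls included, carried PAX5-KIDINS220, a fusion of the B-cell transcription factor PAX5 with the scaffold protein KIDINS220, in a retroviral Tet-on system that doxycycline switches on. The Dox(-) group (3 arrays) had 0 ng/mL doxycycline and the Dox(+) group (3 arrays) 500 ng/mL, and RNA was taken after 24 h. The labels describe no cells without the construct, so an effect of doxycycline and an effect of the fusion cannot be told apart, and they do not say whether the line is 1 clone or a pool.

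The array codes in the sample titles fall into a pair that starts with EA15, with 1 array of each group, and 4 arrays that start with EA20, with 2 of each group. Both EA15 arrays share the same code before its final suffix, while each EA20 array has a different one. The labels do not say what the codes stand for. Among the EA20 arrays the codes of both treated arrays precede those of both untreated arrays, so code order and treatment cannot be told apart there. The labels do not say either that the arrays come from separate cultures, so the p-values below measure only how far these arrays differ from each other, and part of that may be technical. In RNA from whole cultures, fewer cells of a type and less RNA per cell cannot be told apart.

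A ribosome begins as a long RNA precursor that RNA polymerase I transcribes in the nucleolus. Box C/D and box H/ACA snoRNPs, which are RNA-guided enzymes, methylate and pseudouridylate this precursor, and a large set of assembly factors folds it, cuts it and loads it with ribosomal proteins. The whole set is known to follow growth signals and the transcription factor MYC, and cytokine-dependent blood cells need it to divide.

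All 39 genes were well expressed: each had a mean signal above the 40th percentile of all genes (52.4), the limit used here for a dim gene. The 6 haematopoietic markers of the line lay above the dim limit on every array, with Ptprc, which encodes CD45, between 7450 and 17687. Csf2rb, the common beta chain of the interleukin-3 receptor, lay between 8398 and 22447. Il3ra was the weakest of the 6, between 296 and 898. Of 5 B-lineage markers 3 had a mean above the dim limit: Cd79b, between 467 and 777, and Igll1 and Vpreb1, which reached 118 and 78.0 and lay under the limit on single arrays. Cd79a stayed at or below 45.6 and Rag1 at or below 15.8. Of the markers of other cell types, 5 of 6 myelomonocytic, 2 of 5 T cell and 0 of 6 fibroblast genes had a mean above the dim limit; the myelomonocytic Adgre1 lay between 712 and 1166. Neither Pax5 (log2 difference 0.21, limma adjusted p 0.90) nor Kidins220 (0.11, adjusted p 0.51) passed the test with doxycycline, and the sources used here do not say whether their probes lie in the construct. Both measures of RNA quality were close on all arrays in absolute terms, with a 3' to 5' ratio of 0.637 to 0.688 for Gapdh and 1.17 to 1.24 for Actb.

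With doxycycline, signals of the ribosome biogenesis genes were a little lower in the EA20 arrays, while in the EA15 pair they lay on both sides of equal. The log2 difference, Dox(+) minus Dox(-) of log2(signal + 16), had a median over the 39 genes of -0.24 in the EA20 arrays and of 0.04 in the EA15 pair. Over all 18193 genes these medians were 0.00 and 0.01. A second difference was larger: whatever the treatment, the genes were lower in the EA20 arrays than in the EA15 arrays, by a median of 0.69 on the log2 scale. The median of log2(signal + 16) over the 39 genes was 11.59 and 11.62 on the untreated and treated EA15 arrays, 11.18 and 11.11 on the untreated EA20 arrays, and 10.95 and 10.89 on the treated EA20 arrays. The 6 arrays thus stood in 3 steps, with both EA15 arrays highest and both treated EA20 arrays lowest.

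**Figure D1:**
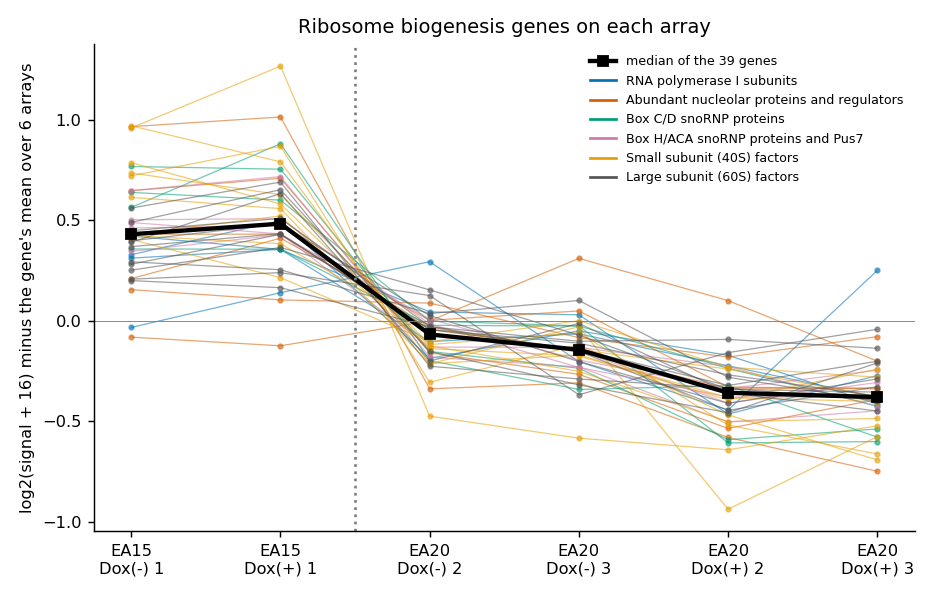
Each thin line is 1 of the 39 genes and shows log2(signal + 16) on each of the 6 arrays minus the gene's mean over the arrays; colours give the role and the black line the median gene. The median gene lies highest on both EA15 arrays, lower on both untreated EA20 arrays and lowest on both treated EA20 arrays.

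In a limma fit with doxycycline as a term and the array code start as a block, 0 of the 39 genes passed (lowest adjusted p 0.19, for Nob1). In that fit 36 of 18193 genes passed in either direction (0.198%) and 9 were lower (0.0495%). The log2 difference was negative for 37 of the 39 genes, against 49.3% of all genes, with a median of -0.16 and a range from -0.48 for Utp20 to 0.07 for Bysl. At an unadjusted p under 0.05, 12 of the 39 were lower and 0 higher. Lower at that p were 5.26% of all genes and 793 of the 10915 genes above the dim limit. Without the block 0 of all genes passed in limma, and 470 genes, none of them a member, had an unadjusted p under 0.05. The median rested in part on the EA15 pair: without either EA15 array it was -0.24. The block then takes up the remaining EA15 array, so this is by construction the median of the EA20 arrays alone. Fbl passed in limma in these fits (adjusted p 0.029 without the untreated EA15 array and 0.030 without the treated one). Its difference there rests on the EA20 arrays alone.

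In the 4 EA20 arrays alone, 38 of the 39 log2 differences were negative, against 50.3% of all genes, and 1 gene, Fbl, passed. In that fit 20 of all genes were lower (0.11%). At an unadjusted p under 0.05, 25 of the 39 were lower, against 6.34% of all genes and 927 of the 10915 above the dim limit. Both treated signals lay below both untreated signals for 30 of the 39 and above them for 0. They lay below for 20.9% of all genes and for 2629 of those 10915. The groups overlapped for Polr1a, Polr1e, Npm1, Ddx21, Rrp9, Bysl, Pes1, Wdr12 and Nop2. The differences were small: 2 genes, Fbl and Utp20, were past 1.5-fold lower, against 6.74% of all genes, dim ones included. Of the 10915 genes above the dim limit, as all 39 are, 513 were past 1.5-fold in either direction. Among the 39, Pes1 was the 1 gene with a positive difference, also with quantile normalization and with median centring of the arrays.

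In the EA15 pair there is 1 array a group and no test. There 15 of the 39 log2 ratios were negative, against 47.5% of all genes, and none was past 1.5-fold, against 19.2% of all genes in either direction. Of the 10915 genes above the dim limit, 785 were past it. The ratios of the 39 ran from -0.21 for Nop14 to 0.32 for Rrp9. Those same 15 genes were negative in both sets of arrays, against 25.8% of all genes. As 38 of the 39 were negative in the EA20 arrays, this count follows from that of the EA15 pair. In that pair the share of negative genes was lower among the 39 than among all genes.

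The difference between the sets in the response to doxycycline was tested as an interaction, which assumes that the lone EA15 arrays vary like the EA20 arrays. The term was negative for all 39 genes, for 36 of them with median centring of the arrays, and for 52.3% of all genes, with a median of -0.31. None of the 39 passed (lowest adjusted p 0.42, for Gnl3), nor did any of the 18193 genes (0.0%). At an unadjusted p under 0.05, 14 of the 39 were negative, against 3.2% of all genes and 402 of the 10915 above the dim limit. A difference in response between the sets was therefore not shown for any single gene.

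**Figure D2:**
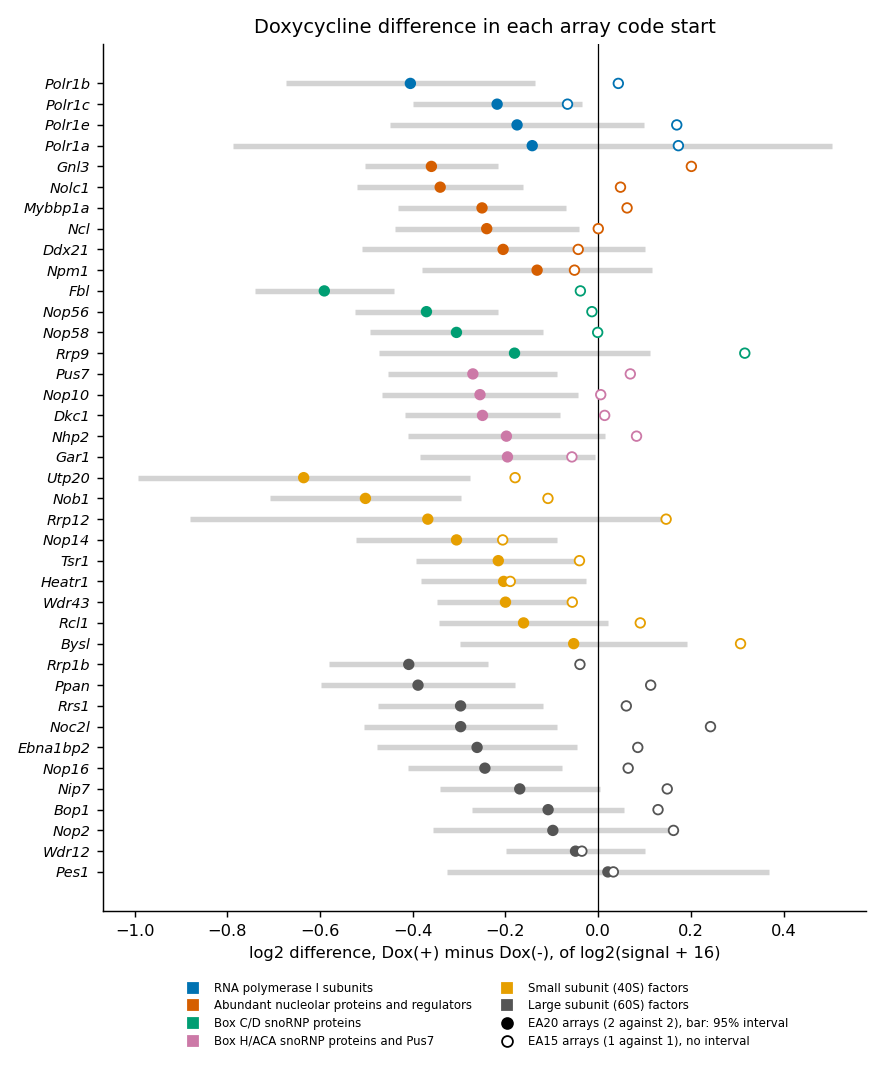
For each of the 39 genes, in order of role, the filled point gives the log2 difference in the EA20 arrays (2 against 2) with its 95% interval from limma, and the open point the log2 ratio in the EA15 pair (1 against 1), which has no interval. Filled points lie left of 0 for all genes but Pes1, and the near end of the interval of Fbl lies farthest from 0, while open points lie on both sides of 0.

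Promoters were compared because the genes lay lower together. RefSeq promoters of build GRCm38.p6, from 250 bases before to 50 bases after a start site, were found for 34 of the 39 genes, with 39 promoters in all. Fbl, Npm1, Bop1, Rrs1 and Rrp12 had no entry. Matches to 13 motifs were counted on both strands; matches describe the letters only and do not show binding. CACGTG, the E-box that MYC with MAX is known to bind, was in 17.9% of the members' promoters, 9.91% of promoters of genes above the dim limit and 7.15% of all promoters. The related CACGCG was in 35.9%, 16.8% and 9.27%, and CCGGAAGT, a site of the ETS family, in 28.2%, 8.43% and 3.89%. CCAAT was in 25.6%, 37.5% and 37.4%, and TATAAA in 7.69%, 7.21% and 13.6%. Of 100 promoters of 85 other genes of the pathway, 20 held CACGTG, 31 CACGCG, 30 CCGGAAGT, 39 CCAAT and 7 TATAAA, so the first 3 motifs had shares near those of the members.

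Shares for the further motifs are given in the same order. GGAAGT, which CCGGAAGT and CAGGAAGT contain, was in 51.3%, 29.0% and 23.8%, and CAGGAAGT in 10.3%, 3.61% and 3.33%. The E-box CATGTG was in 20.5%, 8.75% and 14.2%, and CTTTT in 48.7%, 45.4% and 53.6%. CCTTTC was in 20.5%, 22.4% and 23.8%, and TGACGTCA in 2.56%, 3.03% and 1.79%. TTTCGCGC, an E2F site, and the palindromic motif of NRF1 were in 0 of the members' promoters. They were in 0.67% and 2.19% of those of genes above the dim limit and in 0.323% and 0.971% of all promoters. Among the 100 promoters of other pathway genes, 60 held GGAAGT, 5 CAGGAAGT, 7 CATGTG, 52 CTTTT, 22 CCTTTC and 4 TGACGTCA. There 1 held TTTCGCGC and 2 the motif of NRF1. The members' higher shares of CATGTG and CAGGAAGT, from 8 and 4 promoters, were thus not seen in these genes.

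The 7 promoters with CACGTG are shown by a 30-base window around the match, since this is the motif tied to MYC. Capitals mark the match, and positions count from 1 at the start site, with negative positions before it. Pus7 (chr5:23783666-23783695, minus strand, match from position 29), Utp20 (chr10:88826765-88826794, minus strand, 38), Pes1 (chr11:3963965-3963994, plus strand, 3), Mybbp1a (chr11:72441347-72441376, plus strand, 41), Tsr1 (chr11:74898092-74898121, plus strand, 25) and Wdr43 (chr17:71616220-71616249, plus strand, 18) have it just after the start, in the transcribed part. Nop2 (chr6:125131811-125131840, plus strand) has it upstream, from position -60.
Pus7: ggcgcagcgccgCACGTGtgcgagcccggc
Utp20: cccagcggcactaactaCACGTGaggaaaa
Pes1: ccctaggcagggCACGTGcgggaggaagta
Mybbp1a: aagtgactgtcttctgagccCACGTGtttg
Tsr1: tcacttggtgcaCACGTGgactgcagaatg
Wdr43: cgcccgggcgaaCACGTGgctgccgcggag
Nop2: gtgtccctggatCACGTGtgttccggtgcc

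Longer stretches, the 150 bases before the start, are shown for 3 members with a match to CACGCG or CCGGAAGT there (capitals, either strand) and no other annotated gene over the window. They are Nolc1 (chr19:46075697-46075846, plus strand), Heatr1 (chr13:12395225-12395374, plus strand) and Gar1 (chr3:129831397-129831546, minus strand). Nolc1 holds CACGCG on the opposite strand, Heatr1 holds CCGGAAGT, and Gar1 holds CCGGAAGT on the opposite strand.
Nolc1: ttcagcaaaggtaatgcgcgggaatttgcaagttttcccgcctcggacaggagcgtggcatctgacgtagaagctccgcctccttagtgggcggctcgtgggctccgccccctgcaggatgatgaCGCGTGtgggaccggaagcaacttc
Heatr1: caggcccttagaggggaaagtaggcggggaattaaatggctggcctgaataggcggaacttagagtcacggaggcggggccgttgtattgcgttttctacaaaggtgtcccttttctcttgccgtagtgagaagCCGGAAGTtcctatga
Gar1: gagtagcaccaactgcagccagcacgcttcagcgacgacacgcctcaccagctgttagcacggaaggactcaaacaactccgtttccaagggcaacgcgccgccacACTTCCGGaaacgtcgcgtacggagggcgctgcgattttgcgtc

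Members with and without CACGTG had overlapping values. In the EA20 arrays the log2 difference had a median of -0.22 over the 7 members with a match, between -0.64 for Utp20 and 0.02 for Pes1. It had a median of -0.24 over the 27 members without one. The difference between EA20 and EA15 arrays had medians of -0.88 and -0.62. These medians are a description with no test.

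RNA polymerase I makes the ribosomal RNA precursor, and 4 of its subunits were listed. Their log2 differences were all negative in the EA20 arrays (median -0.20) and 1 of 4 was negative in the EA15 pair (median 0.11). Polr1c, a subunit shared with RNA polymerase III, gave 2475 and 2364 on the untreated and treated EA15 arrays, 1716 and 1763 on the untreated EA20 arrays and 1577 and 1413 on the treated EA20 arrays. Both EA15 arrays were highest, and the treated EA20 arrays lay below the untreated ones. Its log2 difference was -0.17 with the block (SE 0.07, adjusted p 0.41) and -0.22 in the EA20 arrays (SE 0.08, adjusted p 0.30).

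Polr1b, the second largest subunit and part of the catalytic core, gave 757 and 780.5 on the EA15 arrays, 626 and 620 on the untreated EA20 arrays and 435 and 500 on the treated ones. The treated EA20 arrays lay below all others. The log2 difference was -0.41 in the EA20 arrays (SE 0.11, adjusted p 0.20) and 0.04 in the EA15 pair. For Polr1e, an accessory subunit, and Polr1a, the catalytic subunit, treated and untreated EA20 arrays overlapped, with log2 differences of -0.17 and -0.14. The other probe set of Polr1e had a mean signal of 721, against 794 for the chosen one. It was at 0.03 in the EA20 arrays (SE 0.10) and 0.07 with the block. Polr1a ranged from 219 to 376 over the EA20 arrays alone, on either side of its EA15 signals of 297 and 337.

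Of the abundant nucleolar proteins and regulators, 6 were measured. All 6 log2 differences were negative in the EA20 arrays (median -0.25) and 2 in the EA15 pair (median 0.02). Nolc1, the phosphoprotein Nopp140 that binds snoRNPs, gave 6513 and 6734 on the untreated and treated EA15 arrays. It gave 2628 and 2684 on the untreated EA20 arrays and 2220 and 1974 on the treated ones. The EA15 and EA20 arrays were far apart for this probe set, and within the EA20 arrays the treated ones lay below the untreated ones. The log2 difference with doxycycline in the EA20 arrays was -0.34 (SE 0.08, adjusted p 0.13). The distance of EA20 from EA15 arrays depended on the probe set: the weaker probe sets of Nolc1 were at -1.45 (SE 0.12) and -0.20 (SE 0.10).

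Ncl, nucleolin, which binds precursor RNA and supports polymerase I transcription, gave 23859 and 23862 on the EA15 arrays, 17315 and 15872 on the untreated EA20 arrays and 14019 and 14041 on the treated ones. The EA15 signals hardly differed, and the EA20 groups were apart, with a log2 difference of -0.24 (SE 0.08, adjusted p 0.29). Gnl3, the GTPase nucleostemin, had the interaction with the lowest p: its log2 difference was -0.36 in the EA20 arrays (SE 0.06, adjusted p 0.074) and 0.20 in the EA15 pair. Mybbp1a, a MYB-binding protein of the nucleolus, was at -0.25 and 0.06. The RNA helicase Ddx21 (-0.21 and -0.04) and the histone chaperone Npm1 (-0.13 and -0.05) had overlapping EA20 groups.

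Box C/D snoRNPs carry out ribose methylation, and their 4 listed proteins had a median log2 difference of -0.34 in the EA20 arrays and of -0.01 in the EA15 pair. Fbl, fibrillarin, the methyltransferase of the complex, gave 12289 and 11966 on the untreated and treated EA15 arrays, 7880 and 7752 on the untreated EA20 arrays and 5172 and 5197 on the treated ones. The 2 arrays of each kind lay close together and the 3 kinds did not overlap. Over all arrays the group means were 9307 ± 2583 (SD, n = 3) without and 7445 ± 3915 (SD, n = 3) with doxycycline, with both sets pooled in each group.

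In the EA20 arrays Fbl fell by 0.59 on the log2 scale (SE 0.06, 95% interval -0.74 to -0.44, limma adjusted p 0.022), a ratio of 0.664. In the EA15 pair the log2 ratio was -0.04, and the interaction was -0.55 (adjusted p 0.49). The call was lost without any 1 of the 4 EA20 arrays, where the adjusted p ran from 0.12 to 0.26 and the log2 difference from -0.60 to -0.58, and without the mean-variance trend (adjusted p 0.40). It also depended on the probe set. The chosen probe set carries the suffix of probes that can match more than 1 transcript, and the other probe set of Fbl, a unique one, gave 6516 and 5679 untreated and 5049 and 5030 treated in the EA20 set, a log2 difference of -0.27 (SE 0.09). Without probe sets of such suffixes the adjusted p was 0.24, and with the mean of both it was 0.095.

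Nop56, which pairs with Nop58 as the core of the complex, gave 7762 and 7689 on the EA15 arrays, 4096 and 3864 on the untreated EA20 arrays and 3017 and 3132 on the treated ones. As for Fbl, the EA15 pair hardly differed and the EA20 groups were apart, at -0.37 (SE 0.07, adjusted p 0.082). Nop58 was at -0.31 in the EA20 arrays and 0.00 in the EA15 pair. Rrp9, the protein of the U3 snoRNP that guides early cuts of the precursor, had overlapping EA20 groups (-0.18) and the highest ratio of the list in the EA15 pair (0.32).

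**Figure D3:**
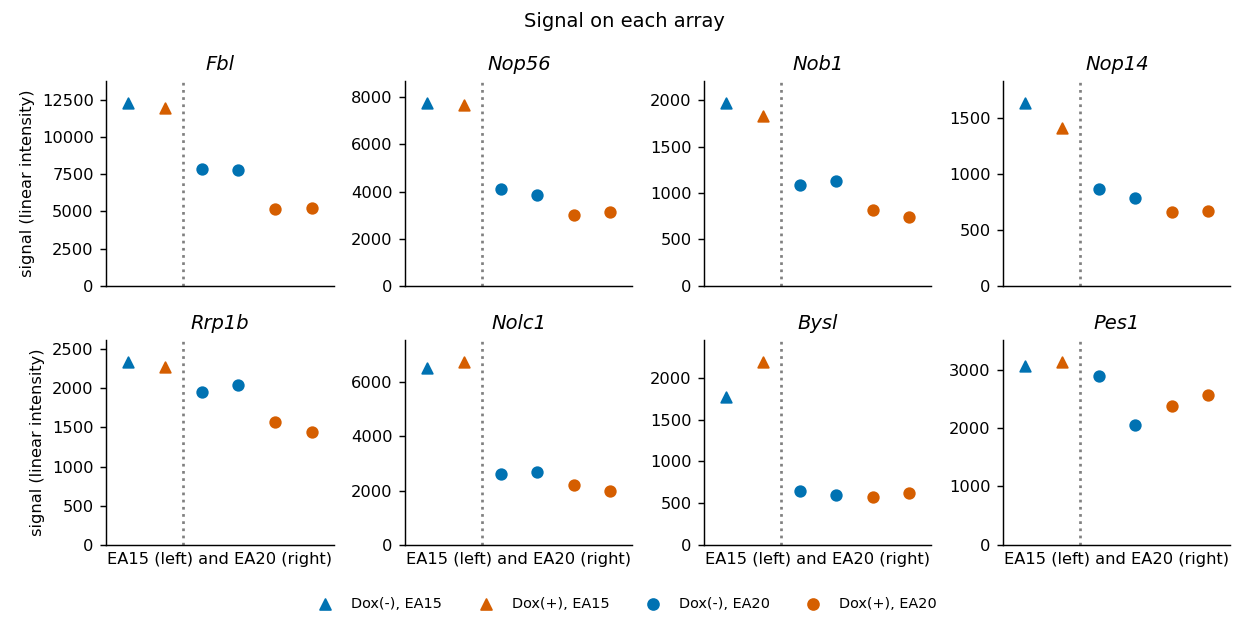
Signal on a linear scale from 0 for 8 of the genes, with 1 point per array: triangles are EA15 arrays, circles EA20 arrays, blue Dox(-) and orange Dox(+). In Fbl, Nop56, Nob1, Nop14, Rrp1b and Nolc1 both treated EA20 arrays lie below both untreated EA20 arrays and all 4 below both EA15 arrays, while in Bysl and Pes1 the EA20 groups overlap.

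Box H/ACA snoRNPs convert uridine to pseudouridine, and Pus7 does so on its own targets without a guide. All 5 listed genes had negative log2 differences in the EA20 arrays (median -0.25, range -0.27 to -0.20), and for all 5 the treated signals lay below the untreated ones. In the EA15 pair the median was 0.01. Dkc1, dyskerin, the catalytic subunit, gave 9256 and 9347 on the EA15 arrays, 6410 and 6058 on the untreated EA20 arrays and 5056 and 5429 on the treated ones. The log2 difference was -0.25 in the EA20 arrays (SE 0.07, adjusted p 0.21).

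Gar1, a subunit needed for substrate turnover, gave 5193 and 4992 on the EA15 arrays, 3375 and 3371 on the untreated EA20 arrays and 3155 and 2746 on the treated ones, with a log2 difference of -0.20 (SE 0.08, adjusted p 0.36). The treated arrays lay below the untreated ones but differed more from each other than the nearer of them did from the untreated arrays. Nhp2 (-0.20) and Nop10 (-0.25), the remaining core subunits, and Pus7 (-0.27) had EA20 differences of the same size. Their EA15 ratios lay between 0.01 and 0.08.

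The 9 small subunit factors act from the first assembly around the precursor to the last cut of 18S RNA in the cytoplasm. All 9 were negative in the EA20 arrays (median -0.22), 8 with separated groups, and 6 of 9 were also negative in the EA15 pair (median -0.06). Nob1, the endonuclease that makes the 3' end of 18S RNA, gave 1971 and 1828 on the EA15 arrays, 1084 and 1130 on the untreated EA20 arrays and 817 and 738 on the treated ones. The treated array was the lower one in both sets. Its log2 difference was -0.37 with the block (SE 0.09, adjusted p 0.19) and -0.50 in the EA20 arrays (SE 0.09, adjusted p 0.077).

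Nop14, a factor of the early processome, gave 1633 and 1414 on the EA15 arrays, 861 and 787 on the untreated EA20 arrays and 659 and 667 on the treated ones. It had the lowest ratio of the list in the EA15 pair (-0.21), with -0.31 in the EA20 arrays (SE 0.09) and an adjusted p of 0.21 with the block. Utp20, a large scaffold of the processome, gave 1350 and 1190 on the EA15 arrays, 586 and 667 on the untreated EA20 arrays and 348 and 452 on the treated ones. Its log2 difference in the EA20 arrays, -0.64, was the largest of the list and also an uncertain one (SE 0.15, adjusted p 0.15).

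Heatr1, the counterpart of a yeast processome subunit, had nearly the same difference in both sets, -0.20 and -0.19. Wdr43 (-0.20 and -0.06) and Tsr1 (-0.22 and -0.04), a factor of late 40S particles, were negative in both sets. Rcl1 (-0.16 and 0.09), which acts in processing of the precursor, and Rrp12 (-0.37 and 0.15), which acts in export, were negative in the EA20 arrays alone. Rrp12 gave 164 to 252 on the EA20 arrays, against 464 and 515 on the EA15 arrays.

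Bysl, bystin, a factor of late 40S assembly, was 1 of the 2 genes with a positive log2 difference in the fit with the block (0.07, SE 0.09, adjusted p 0.85). It gave 1767 and 2190 on the untreated and treated EA15 arrays, 644 and 596 on the untreated EA20 arrays and 572 and 623 on the treated ones. The EA20 groups overlapped (-0.05), and the positive sign came from the EA15 pair (0.31). These signs hold for the chosen probe set. A weaker probe set of Bysl above the dim limit had the opposite ones. It was at -0.03 with the block (SE 0.12), 0.03 in the EA20 arrays (SE 0.16) and -0.14 in the EA15 pair.

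The 11 large subunit factors had a median log2 difference of -0.24 in the EA20 arrays, where 10 were negative and 8 had separated groups, and of 0.09 in the EA15 pair, where 2 were negative. Rrp1b, a nucleolar factor that also recruits a phosphatase, gave 2334 and 2271 on the EA15 arrays, 1950 and 2041 on the untreated EA20 arrays and 1563 and 1438 on the treated ones. Its log2 difference was -0.29 with the block (SE 0.08, adjusted p 0.25) and -0.41 in the EA20 arrays (SE 0.07, adjusted p 0.085). Weaker probe sets of Rrp1b were at -0.07 (SE 0.11) and -0.26 (SE 0.15) with the block. They were at -0.21 and -0.44 in the EA20 arrays and at 0.21 and 0.10 in the EA15 pair, where the chosen one was at -0.04. Rrs1, which loads the 5S particle, gave 4070 and 4245 on the EA15 arrays, 2922 and 2679 on the untreated EA20 arrays and 2183 and 2369 on the treated ones. The groups of the EA20 set did not overlap (-0.30, SE 0.08, adjusted p 0.17), and in the EA15 pair the treated array was the higher one (0.06).

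Ppan was at -0.39 in the EA20 arrays and 0.11 in the EA15 pair, and Noc2l at -0.30 and 0.24. Ebna1bp2 (-0.26 and 0.09), Nop16 (-0.24 and 0.06) and Nip7 (-0.17 and 0.15) also had separated EA20 groups and a positive EA15 ratio. The methyltransferase Nop2 (-0.10 and 0.16) had overlapping groups.

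Pes1, Bop1 and Wdr12 form 1 complex, PeBoW, which is needed for 28S RNA maturation, and its subunits had the smallest differences among the large subunit factors together with Nop2. Pes1 gave 3060 and 3130 on the EA15 arrays, 2891 and 2049 on the untreated EA20 arrays and 2372 and 2572 on the treated ones. The untreated EA20 arrays were farther apart than any other pair and held both treated signals between them. The log2 difference was 0.02 with the block (SE 0.11, adjusted p 0.96). Wdr12 was at -0.05 in the EA20 arrays and -0.04 in the EA15 pair, and Bop1 at -0.11 and 0.13. These small differences hold for the chosen probe sets. Weaker probe sets above the dim limit were at -0.31 for Wdr12 (SE 0.16), -0.38 for Bop1 (SE 0.25) and 0.04 for Pes1 (SE 0.24) in the EA20 arrays.

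Between the array sets the same genes differed by more than with doxycycline. In the coefficient of the array code start, 35 of the 39 genes were lower in the EA20 arrays and 0 higher, against 16.3% of all genes lower and 17.3% higher. Of the 10915 genes above the dim limit, 2845 were lower and 3057 higher. All 4 EA20 arrays lay below both EA15 arrays for 37 of the 39, against 21.5% of all genes and 3427 of those 10915. The median log2 difference, EA20 minus EA15, was -0.69 over the 39 genes and 0.04 over all genes. Median centring moved the latter to -0.08 and the former to -0.81. It shifts all genes of an array alike, so the distance of the list from all genes (-0.73) could not change. With quantile normalization that distance was -0.65. What sets the EA15 and EA20 arrays apart is not given by the labels and was not tested.

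The difference between sets was largest for Bysl (-1.67, SE 0.10, limma adjusted p 2.7e-06), a ratio of 0.315. Nolc1 followed (-1.48, SE 0.09) and then Utp20 (-1.32, SE 0.14). This order is that of the chosen probe sets. The other probe set of Bysl was at -0.58 (SE 0.13), and those of Nolc1 at -1.45 (SE 0.12) and -0.20 (SE 0.10). By role the median was -1.02 for the small subunit factors, -1.01 for the box C/D proteins, -0.70 for the box H/ACA proteins with Pus7, -0.60 for the large subunit factors, -0.55 for the abundant nucleolar proteins and -0.54 for the polymerase subunits. The genes that did not pass were Polr1a (-0.08), Npm1 (-0.19), Pes1 (-0.33) and Ddx21 (0.16). Without the treated EA15 array 30 of the 39 were lower, against 11.9% of all genes, and the median was -0.52, while without the untreated one it was -0.83.

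Other features of the arrays moved with the set. The 6 haematopoietic markers were all higher in the EA20 arrays, with a median log2 difference of 1.31, and all 6 passed, against 17.3% of all genes higher. Their summed signal was 26115 and 27856 on the untreated and treated EA15 arrays, 67974 and 68531 on the untreated EA20 arrays and 74013 and 74323 on the treated ones. The median signal of an array was 56.3 to 57.1 in the EA15 pair and 61.6 to 65.6 in the EA20 arrays, and the Gapdh 3' to 5' ratio 0.684 to 0.688 and 0.637 to 0.680, so both measures separated the sets. The Actb ratio overlapped (1.17 to 1.18 and 1.18 to 1.24). With doxycycline 0 of the 6 markers passed in limma (1 had an unadjusted p under 0.05), and their median log2 difference with the block was 0.12. The part of these features in the difference of the ribosome genes was not tested.

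**Figure D4:**
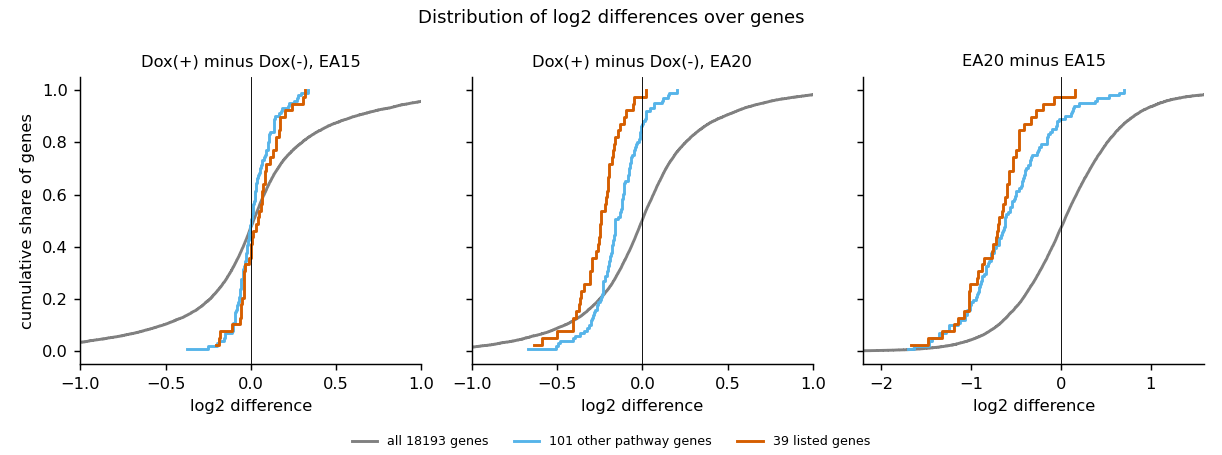
Cumulative share of genes (vertical axis) at or below a log2 difference (horizontal axis) for the 39 genes, 101 other genes of the pathway and all 18193 genes; the axes are limited, so a few genes of the tails lie outside. The curves of the 39 genes and of the other pathway genes lie left of all genes for doxycycline in the EA20 arrays and farther left for EA20 minus EA15, and run near 0 in the EA15 pair.

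Other genes of the same pathway had differences mostly of the same sign. Of 108 further biogenesis genes listed by role, 101 were measured, and 0 passed in limma with the block or in the EA20 arrays alone. At an unadjusted p under 0.05 in these fits, 17 and 35 were lower, against 5.26% and 6.34% of all genes. Among the 10915 genes above the dim limit, as all 101 are, 793 and 927 were lower at that p. In the EA20 arrays 88 of the 101 were negative, against 50.3% of all genes, with a median log2 difference of -0.16. For 63 of the 101 the treated signals lay below the untreated ones, against 20.9% of all genes and 2629 of those 10915. In the EA15 pair 49 were negative, against 47.5% of all genes, and the median was 0.00. Between the sets 77 were lower in the EA20 arrays and 4 higher (Nsa2, Nop53, Sbds and Taf1b), with a median of -0.62. Of all genes 16.3% were lower and 17.3% higher, and of the 10915 above the dim limit 2845 and 3057. Single genes of this list lay as far out as the members or farther: Mdn1, a large ATPase of 60S assembly, was at -0.67 in the EA20 arrays (SE 0.11, adjusted p 0.061), and Lyar at -1.70 between the sets.

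By role, the median in the EA20 arrays was -0.16 for 39 other small subunit factors, -0.16 for 43 other large subunit factors, -0.13 for 11 other subunits and factors of polymerase I and -0.11 for 8 snoRNP assembly factors. Mrto4, Polr1f, Polr1g, Polr1h, Polr2k, Polr2l and Snu13 were not matched. Wdr46, a small subunit factor, was at -0.21 with the block (SE 0.06, adjusted p 0.25). Sdad1, a large subunit factor, gave 763 and 585 on the EA15 arrays, 592 and 599 on the untreated EA20 arrays and 428 and 416 on the treated ones. It was lower with doxycycline in both sets, at -0.45 with the block (SE 0.09, adjusted p 0.11).

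Of the factors that start polymerase I, Ubtf, which binds the ribosomal DNA, was at -0.03 with the block (SE 0.06, adjusted p 0.90), and Rrn3, which recruits the polymerase, at -0.12 (SE 0.09, adjusted p 0.69). Taf1d, a subunit of the selectivity factor, was at -0.28 (SE 0.08, adjusted p 0.25). Ruvbl2, an ATPase of snoRNP assembly, was at -0.21 with the block (SE 0.08, adjusted p 0.37) and at -1.47 between the sets.

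Myc, whose protein is a known activator of this pathway, gave 5005 and 4192 on the untreated and treated EA15 arrays, 5766 and 5366 on the untreated EA20 arrays and 4448 and 3878 on the treated ones. The treated array was the lower one in both sets. The log2 difference was -0.36 with the block (SE 0.07, adjusted p 0.11), -0.42 in the EA20 arrays (SE 0.08, adjusted p 0.11) and -0.25 in the EA15 pair. Between the sets Myc was at 0.07 (adjusted p 0.59). Of the 10 listed genes for MYC and its partners, 0 passed with doxycycline (3 at an unadjusted p under 0.05), with a median log2 difference of 0.02 with the block. Between the sets 6 of the 10 were higher in the EA20 arrays, against 17.3% of all genes, and 0 lower. Among the higher ones were Mxd4 (2.44) and Mxd1 (1.40), which encode repressors that compete for MAX.

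Further probe sets of the same genes were compared, since a probe set is a separate measurement on the same arrays. Of the 39 genes, 13 had 1 probe set and 26 had several, and 33 of the 38 others were above the dim limit. In the EA20 arrays 28 of these 33 had a negative log2 difference with doxycycline (median -0.26), and in the EA15 pair 19 had one (median -0.01). The EA20 sign was that of the chosen probe set for 29 of the 33. For Bysl (0.03), Ebna1bp2 (0.24), Nop16 (0.20) and Polr1e (0.03) another probe set was positive and the chosen one negative. Between the sets 28 were lower in the EA20 arrays (median -0.52). The sign between the sets was that of the chosen probe set for 27 of the 33. For Nip7 (chosen -0.53, other 0.70) and Wdr12 (-0.27 and 0.57) both probe sets passed in opposite directions, and for Ddx21 (0.16 and -1.18) the other one alone passed. Nip7 and Wdr12 are counted above among the genes lower in the EA20 arrays by their chosen probe set, and their other probe set goes against it. The others with opposite signs were Heatr1 (0.24), Pes1 (0.22) and Polr1a (0.30), where the other probe set did not pass.

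**Figure D5:**
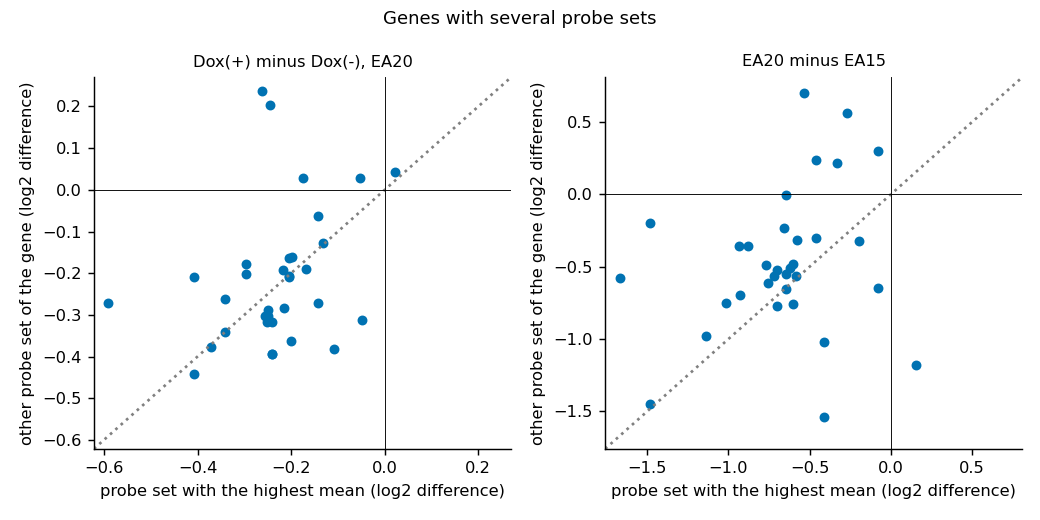
Log2 difference of the probe set used for a gene (horizontal axis) against that of each other probe set above the dim limit of the same gene (vertical axis), for doxycycline in the EA20 arrays (left) and for EA20 minus EA15 (right); the dotted line marks equal values. In both panels 28 of the 33 points lie below 0 on the vertical axis, and single genes lie far from the line.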

How the data were processed

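Total RNA of Ba/F3 cells was measured on 6 arrays, 1 per sample. The authors deposited a linear signal intensity for each probe set. Per the submitters' processing notes these came from Affymetrix Expression Console, with neither version nor algorithm given in the sources used here. Each array has a mean of 500 once 2% of values are trimmed at each end, so the values cannot show a difference in the total amount of mRNA.

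Of 45101 probe sets, 64 were controls, and of the 45037 others 34945 had 1 symbol, 932 several and 9160 none in the platform annotation used. Signals were transformed to log2(signal + 16), which understates differences of dim genes. Fits used limma 3.58.1 in R 4.3.3 (lmFit, eBayes with trend, two-sided) with Benjamini-Hochberg adjustment over all 18193 genes and a threshold of 0.05; tables and figures used Python 3.11.15. Fits were tested on simulated data. The small number of arrays limits the precision. Groups came from the source names. Replicate numbers follow sample order and pair no arrays.

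The 40 genes, the other lists and the tests were chosen with earlier results of these data known. Signals on each array are given for members that passed a test, for the 2 of each role with the smallest p with the block, and for members with a positive difference with the block; those of Utp20, Rrp12, Polr1a and the second probe sets were added after their values were seen. Of the other lists, the gene with the smallest p is named, with Myc, Ubtf and Rrn3; Mxd1, Mxd4, Mdn1, Lyar and the 4 genes higher between the sets were chosen after their values were seen. The 13 motifs were not fixed beforehand, and the longer upstream windows were picked from those with a match. Alternatives were no block, quantile normalization, centring on the median, eBayes with no trend or with a robust prior, no dim genes, a mean over all probe sets of a gene, no probe sets with the suffixes _s_at, _x_at or _a_at, pseudocounts of 1 and 64, a fit of each probe set, and 1 array left out at a time.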

Additional observations from a re-analysis of the deposited data

How the results depend on the processing

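Counts of calls moved with the processing more than directions did. With the array code start as a block, 36 of all genes passed, and this became 0 without the block and 0 without the trend, 130 without dim genes, 13 with probe sets averaged, 61 and 22 with pseudocounts of 1 and 64, and 0 to 60 leaving out 1 array. Of the members 0 passed with the block, and 0 or 1 leaving out 1 array. The 1 was Fbl without an EA15 array, where the EA20 arrays alone set the difference. In the EA20 arrays alone, 75 genes passed, and this became 0 without the trend, 397 without dim genes, 12 with probe sets averaged, 155 and 23 with pseudocounts of 1 and 64, and 0 to 6 leaving out 1 array. Of these calls 20 of 75 were lower, and 13 of 84 with median centring.

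Of the members 1 passed in the EA20 arrays (Fbl), and 0 without the trend, 0 with the mean of all probe sets, 0 without the probe sets suffixed _s_at, _x_at or _a_at, 0 in each case leaving out 1 array, 2 with a pseudocount of 1 (Fbl and Nob1) and 8 without dim genes (Fbl, Gnl3, Nop56, Nob1, Rrp1b, Utp20, Nolc1 and Ppan), where fewer genes were tested. For the interaction 0 genes passed, and 30 without dim genes, none of them a member. Between the sets 6107 genes and 35 members passed. Fitting every probe set by itself gave 11176 of 45037 probe sets and 59 of the members' 77.

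The member median was -0.16 with the block, and -0.24 to -0.11 leaving out 1 array. For the interaction it was -0.31, -0.25 with median centring and -0.36 to -0.27 leaving out 1 array. Between the sets it was -0.69, -0.81 with median centring, -0.58 over every probe set and -0.83 to -0.52 leaving out 1 array. The mean of all probe sets turned the direction between the sets for Ddx21 (-0.51) and Nip7 (0.083). For no single member did an alternative turn the direction of a doxycycline difference that passed in either setting, but few passed in any. Signs of differences that did not pass changed for some members. Leaving out 1 array, 33 to 38 of the 39 were negative with the block, against 37 with all arrays. In the EA20 arrays alone 35 to 39 were negative, against 38. The causes of these shifts were not tested beyond what each setting changes by construction. With 2 arrays a group in the EA20 set and 1 in the EA15 pair, small differences could not be tested well, and dim genes give little signal over background.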
